A study of Rattus norvegicus with 12 samples.

Results

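The Zfp genes of the rat were followed in hepatocytes taken from heart-beating donors and from donors that had been dead for 4, 16 or 30 h. Members were the probe sets with a single gene symbol that reads Zfp and then a digit, without Zfp36, Zfp36l1 and Zfp36l2, which belong to another protein family. This gave 336 probe sets for 217 genes, of 31042 probe sets and 14217 genes on the array. The donors were rats whose strain the labels write as Fischer 334, with 3 animals and 3 Affymetrix arrays in each of the 4 groups. Hepatocytes were isolated by perfusing the liver with collagenase and gave total RNA without culture. The labels give no treatment, genotype, age or sex, and name the interval after death as the one difference between the groups. Every mean or difference below has n = 3 per group.

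Most proteins named Zfp carry C2H2 zinc fingers, small folds in which a pair of cysteines and a pair of histidines hold a zinc ion and the fold reads a few bases of DNA. Many of the vertebrate ones also carry a KRAB domain, which recruits the co-repressor Trim28 (KAP1) and, through it, histone methylation that silences transposable elements and genes. Other proteins named Zfp act in chromosome segregation, ubiquitin or SUMO transfer, or RNA binding. Their transcripts are as a rule scarce, so a signal near the floor of an array is common.

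The deposited values are log2 signals, and the mean over the 12 arrays ran from 3.38 to 9.08 among Zfp probe sets, with a median of 5.73 against 5.87 over all probe sets. Of the 336, 108 (32.1%) had a mean under 5, here called near the floor, against 31.4% of all probe sets. Bright probe sets were fewer than elsewhere on the array: 17 (5.06%) had a mean of 8 or more, against 14.4% of all. The 5 brightest were those of Zfp771 (1383260_at), Zfp706 (1371640_at), a small protein that favours exit from the embryonic stem cell state, Zfp326 (1392919_at), a protein that links splicing to the elongating polymerase, Zfp207 (1394591_at) and Zfp91 (1383054_at). The 3 dimmest were those of Zfp617 (1382791_at), Zfp534l1 (1393704_at) and Zfp950l1 (1374963_s_at), which lay between 3.23 and 3.63 on every array. The median standard deviation of a Zfp probe set between animals was 0.09 log2 units in heart-beating donors and 0.11 at 30 h.

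The groups also differed in measures that do not concern Zfp genes. The 3' control probe set of Gapdh exceeded its 5' probe set by 0.39 ± 0.08 log2 units (SD) in the controls, and 4 h after death it did so by 0.38 ± 0.10. The gap was 1.05 ± 0.20 for the 16 h donors and 1.97 ± 0.29 for the 30 h donors, with exact two-sided permutation p = 0.1 at both later times, the smallest that 3 arrays against 3 allow. For Actb the gap was already 1.85 ± 0.05 in the controls, and it was larger by 0.36 at 16 h (exact p = 0.2), with overlapping arrays, and by 1.02 at 30 h (exact p = 0.1). The 14 measured hepatocyte markers were bright (means over the 12 arrays of 9.65 or more), and 1 was called higher and 3 lower at 30 h. Of the markers of other cells at 30 h, 8 of 11 for Kupffer cells and macrophages were called lower, 4 of 5 erythroid and 6 of 12 stellate cell markers higher, and 1 of 10 endothelial markers higher; none of the 5 cholangiocyte, 10 lymphocyte and 5 neutrophil markers was called. At 16 h, 6 of the Kupffer markers were called lower, 3 of the erythroid and 3 of the endothelial markers higher, and 2 of the stellate markers higher with 1 lower. Over all genes, each by its brightest probe set as for the markers, 12.5% were called higher and 10.5% lower at 30 h. The shares at 16 h were 4.3% and 1.3%. The summed linear signal of the Kupffer list ran from 5265 to 5648 in heart-beating donors and from 3241 to 3964 at 30 h, that of the erythroid list from 4265 to 5329 and from 13680 to 20550, and that of the stellate list from 2605 to 3594 and from 4036 to 5400. At 4 h the erythroid sum already ran from 4678 to 15670, so it overlapped both of its other ranges. The part of RNA quality and of other cells in the Zfp differences was not tested, and fewer cells of a type cannot be told apart from less RNA per cell.

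**Figure D1:**
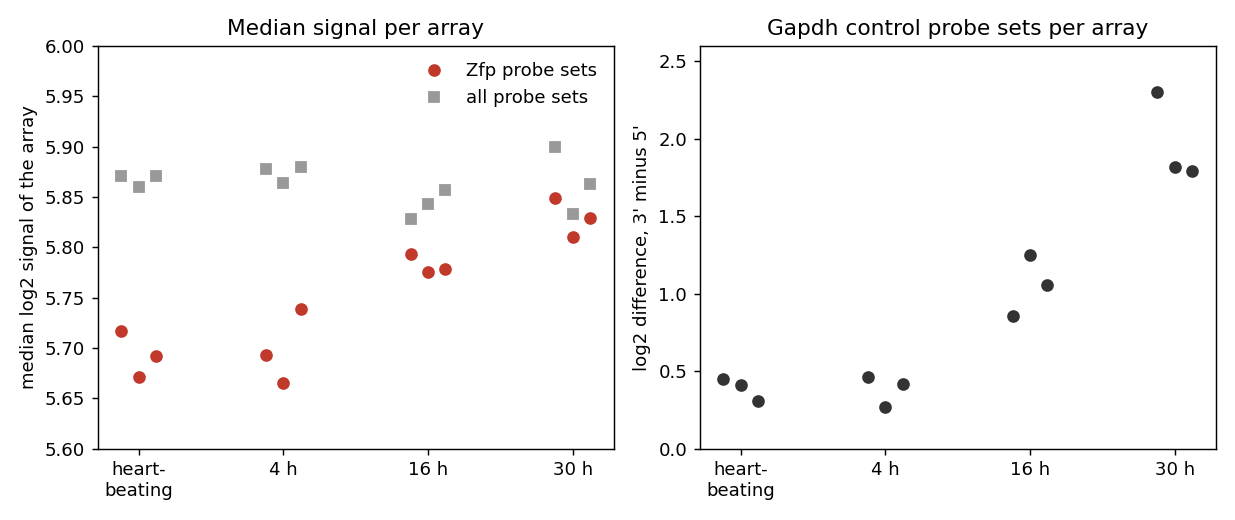
The left panel plots, for each of the 12 arrays, the median log2 signal of the 336 Zfp probe sets (circles) and of all 31042 probe sets (squares); the axis does not start at 0. The right panel plots the log2 difference between the 3' and 5' Gapdh control probe sets of the same arrays. The Zfp medians of the 16 h and 30 h arrays lie above those of every earlier array, and the same arrays have the larger Gapdh differences. The median of an array is not the median change: the median Zfp difference between 16 h and heart-beating donors was -0.01, with 158 of 336 (47%) above 0. Among the 228 Zfp probe sets with a mean signal of 5 or more, which are not drawn apart, the 16 h medians (6.41 to 6.49) overlap those of heart-beating donors (6.43 to 6.48), and those of 30 h (6.54 to 6.57) lie above both.

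No Zfp probe set was called at 4 h. In the limma test with Benjamini-Hochberg adjustment over all 31042 probe sets, 0 of 336 passed an adjusted p under 0.05, where 0.0226% of all probe sets did, and 9 had an unadjusted p under 0.05 against 16.8 for evenly spread p-values. The Zfp probe set with the smallest p was that of Zfp213 (1377285_at), at 6.03, 6.08 and 5.97 in heart-beating donors and 5.88, 5.64 and 5.73 at 4 h. Its arrays did not overlap, yet the difference of -0.28 did not pass the test (adjusted p = 0.698). The next in order were Zfp280c (1384897_at), with a difference of 0.23, and Zfp474 (1378788_at), with 0.31, both near the floor and neither called.

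By 16 h, 7 Zfp probe sets had risen and 1 had fallen, 2.38% of the 336, where 4.67% of all probe sets were called (3.18% higher and 1.49% lower). The share of Zfp probe sets called was thus below that of the array. The 7 rises were in 7 genes and ran from 0.35 to 1.42 log2 units, or 1.28-fold to 2.67-fold. The count depended on single arrays and on the fit: it was 1 without the second 16 h animal, 2 without the third heart-beating animal and 3 without the first 16 h animal, and 17 when the 30 h arrays, whose spread is larger, were left out. With the Gapdh 3' to 5' gap as a covariate none was called, but all 8 differences kept their sign and their standard errors were 1.67 to 1.89 times as large. Zfp354a then had a difference of 1.63 (SE 0.59), Zfp292 of 0.64 (SE 0.24), Zfp266 of 0.61 (SE 0.28), Zfp385b of 0.53 (SE 0.21), Zfp638 of 0.47 (SE 0.15) and Zfp318 of 0.40 (SE 0.17), each near its value without the covariate. Zfp644 had -0.26 (SE 0.16) and Zfp612 had 0.18 (SE 0.14), both smaller in size than without it. The gap and the interval after death move together, so at 16 h the interval and the RNA quality cannot be told apart.

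Zfp354a (Kid-1), a KRAB repressor first described in kidney, had the largest rise at 16 h. Its only probe set (1368877_at) read 6.50, 6.98 and 6.64 in heart-beating donors, 7.45, 6.56 and 6.48 at 4 h, 8.86, 8.18 and 7.34 at 16 h, and 6.46, 6.42 and 6.59 at 30 h. The 16 h arrays lay above all arrays of heart-beating donors and of 30 h, but differed among themselves by more than the heart-beating ones, and 1 array of 4 h exceeded the lowest of them. The difference was 1.42 (SE 0.32, adjusted p = 0.0232) at 16 h and -0.22 (adjusted p = 0.688) at 30 h, and the fall from 16 h to 30 h was itself called (-1.64, adjusted p = 0.00641). The call at 16 h was lost without the first or the third heart-beating animal or the first or second 16 h animal (adjusted p up to 0.0943), with a difference of 1.05 without the first 16 h animal, and with a variance trend and robust settings (adjusted p = 0.0638), while the fall from 16 h to 30 h was kept in all 12.

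Zfp266 (1393360_at) read 8.60, 7.89 and 8.13 in heart-beating donors and 8.81, 8.89 and 8.81 at 16 h. The 16 h arrays were close together and above every heart-beating array, and the difference was 0.63 (adjusted p = 0.0278). At 30 h it read 8.57, 8.79 and 8.54, overlapping the heart-beating arrays, and the difference of 0.43 missed the test (adjusted p = 0.0579); the 30 h to 16 h difference of -0.20 was not called either (adjusted p = 0.413). The 16 h call of Zfp266 was lost without the second or the third heart-beating animal or any 1 of the 16 h animals (largest adjusted p = 0.115).

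The other 5 probe sets that rose at 16 h were also higher at 30 h. They were those of Zfp292 (1381902_at), Zfp385b (1390554_at), Zfp638 (1373764_at), Zfp318 (1389340_at) and Zfp612 (1389774_at), with 16 h differences of 0.70, 0.61, 0.38, 0.37 and 0.35 and 30 h differences of 0.99, 0.60, 0.52, 0.46 and 0.73. In each gene this was the only probe set called at 16 h, of 6, 3, 3, 3 and 2 in that order. The lowest 16 h differences in these genes were -0.12, -0.07, 0.02, 0.02 and 0.11. At 30 h the other 2 probe sets of Zfp385b were not called, the lower with a difference of -0.21. Zfp638 (NP220) is a DNA-binding protein that works with the HUSH silencing complex, and Zfp318 governs the choice between IgM and IgD transcripts in B cells. The 16 h and 30 h comparisons share the heart-beating arrays, so the second value is no independent check of the first. Of the 8 calls at 16 h, that of Zfp385b alone held in each of the 12 fits without 1 array. The others here had adjusted p up to 0.0521 (Zfp292), 0.11 (Zfp638), 0.147 (Zfp318) and 0.115 (Zfp612), in most cases without a heart-beating or 16 h animal. That of Zfp638 was also lost after a further quantile normalization (0.29, adjusted p = 0.0657).

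At 30 h, 53 Zfp probe sets of 44 genes had risen and 12 probe sets of 12 genes had fallen. These were 19.3% of the 336, where 19.7% of all probe sets were called, so Zfp probe sets were called about as often as the rest of the array. Their direction differed: 15.8% of Zfp probe sets were called higher and 3.57% lower, against 10.4% and 9.36% of all, and 81.5% of the Zfp calls were rises against 52.6% of all calls. The median difference of the 336 was 0.08 against 0.01 over all probe sets, and 229 of them (68.2%) lay above 0 against 52.3% of all. The 53 rises ran from 0.21 to 1.16 log2 units (1.16-fold to 2.24-fold) with a median of 0.45, and the 12 falls from -0.23 to -1.003 with a median of -0.38. Only Zfp207 and Zfp644 reached a 2-fold difference.

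The 3 arrays of 30 h all lay above the 3 of heart-beating donors in 91 Zfp probe sets and all below in 28, against 16.9% and 16.6% of all probe sets. With each gene represented by its brightest probe set in the same fit, 40 of 217 Zfp genes (18.4%) were called higher and 3 (1.38%) lower, against 12.5% and 10.5% of all genes. When the Gapdh 3' to 5' difference of each array entered the model as a covariate, 0 of 336 Zfp probe sets and 0 of all 31042 were called at 30 h, and the median standard error of a Zfp difference rose from 0.09 to 0.31. Of the 28 named calls, 24 kept their sign: Zfp292 had a difference of 0.84 (SE 0.50) and Zfp451 of 0.66 (SE 0.31), while Zfp207 had 0.25 (SE 0.64) and Zfp644 -0.41 (SE 0.34). The covariate and the interval after death move together, so with these arrays the interval and the RNA quality cannot be told apart.

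**Figure D2:**
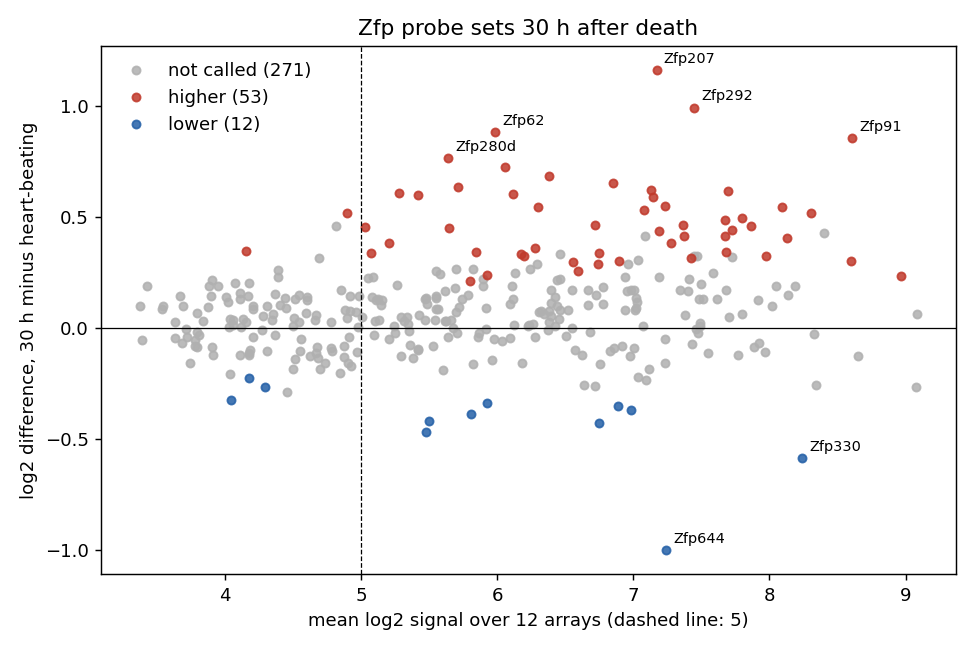
Each point is 1 of the 336 Zfp probe sets, placed by its mean log2 signal over the 12 arrays and its log2 difference between 30 h and heart-beating donors. Red points (53) were called higher, blue points (12) lower and grey points (271) were not called; the dashed line marks a mean signal of 5, with few calls to its left.

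The calls lay among the brighter members, as they did over the whole array. Of the 108 probe sets near the floor, 2 were called higher (Zfp182 and Zfp318) and 3 lower (Zfp503, Zfp655 and Zfp972). These were 1.85% and 2.78%, against 2.93% and 3.7% of all probe sets near the floor. Of the 27 with a mean under 4 none passed, where 1.97% of all were higher and 1.24% lower. Of the 228 with a mean of 5 or more, 51 (22.4%) were called higher and 9 (3.95%) lower, against 13.8% and 11.9% of all. Rises made up 15.4% of Zfp probe sets with a mean from 5 to 6, 19.4% from 6 to 7, 31.1% from 7 to 8 and 35.3% of the 17 at 8 or more, against 6.66%, 12.2%, 19.7% and 21.1% of all probe sets in those ranges. Falls made up 1.64% of Zfp probe sets from 7 to 8 against 11.3% of all, and 5.88% at 8 or more against 23.7% of all. A difference near the floor is compressed on the log2 scale, so a missing call there does not show that a transcript kept its level.

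**Figure D3:**
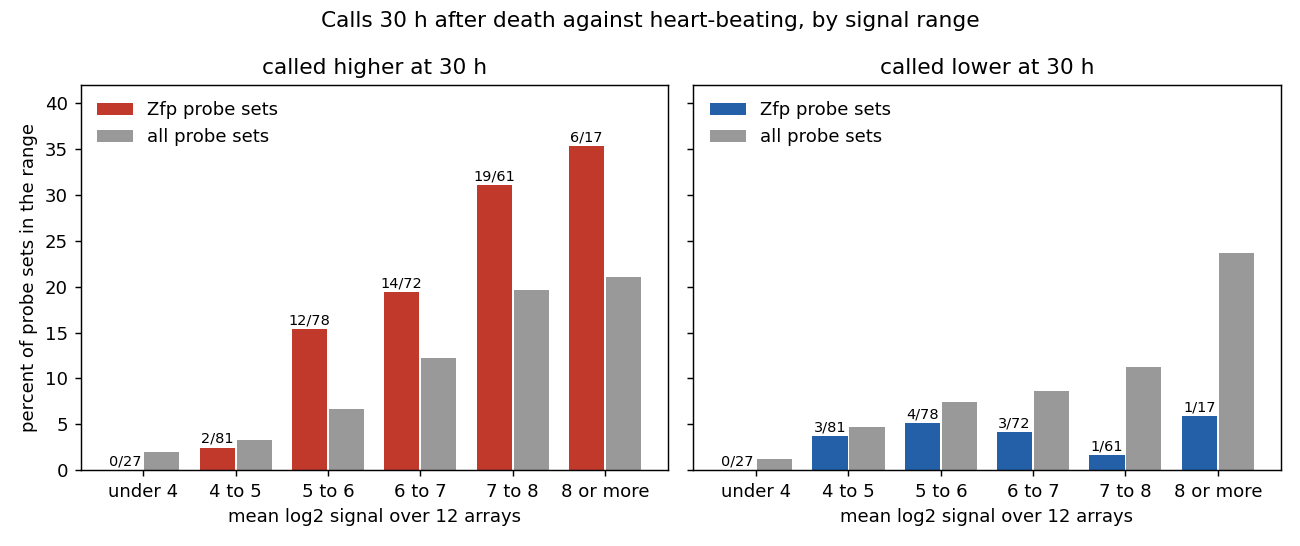
Bars give the percent of probe sets in each range of mean log2 signal that were called higher (left) or lower (right) at 30 h, in colour for Zfp and in grey for all probe sets; the counts over the coloured bars are called and total Zfp probe sets. From a mean of 5 upward the share called higher is larger for Zfp than for all probe sets in every range, and the share called lower is smaller.

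The promoters of the members that the results turn on are shown before their values. They are RefSeq sequences of the rat assembly GRCr8, 300 bases around the annotated start, 5′ to 3′ on the gene's strand, with capitals for any of 7 motifs found on either strand: GGGCGG, the GC box; CCAAT, the box named after its letters; CCGGAAG, the ETS core; TGACGT, from the cAMP response element; CACGTG, the E box; TGCGCA, from the NRF1 site; and TATAAA, the TATA box. Zfp207 lies at chr10:65883380-65883679 on the plus strand, Zfp292 at chr5:54264389-54264688 on the minus strand, Zfp612 at chr19:54963193-54963492 on the plus strand, and Zfp644, which fell, at chr14:3249934-3250233 on the plus strand.
Zfp207: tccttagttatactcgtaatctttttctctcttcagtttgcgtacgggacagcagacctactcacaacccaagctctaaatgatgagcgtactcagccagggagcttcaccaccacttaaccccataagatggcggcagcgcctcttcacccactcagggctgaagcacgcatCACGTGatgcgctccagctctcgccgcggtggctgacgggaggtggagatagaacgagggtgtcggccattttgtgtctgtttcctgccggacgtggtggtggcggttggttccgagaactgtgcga
Zfp292: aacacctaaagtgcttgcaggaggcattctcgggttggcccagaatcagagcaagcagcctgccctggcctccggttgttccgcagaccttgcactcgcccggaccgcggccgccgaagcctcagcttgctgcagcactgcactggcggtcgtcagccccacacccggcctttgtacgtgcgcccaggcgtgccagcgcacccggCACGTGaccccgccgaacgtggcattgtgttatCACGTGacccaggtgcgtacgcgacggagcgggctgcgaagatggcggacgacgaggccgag
Zfp612: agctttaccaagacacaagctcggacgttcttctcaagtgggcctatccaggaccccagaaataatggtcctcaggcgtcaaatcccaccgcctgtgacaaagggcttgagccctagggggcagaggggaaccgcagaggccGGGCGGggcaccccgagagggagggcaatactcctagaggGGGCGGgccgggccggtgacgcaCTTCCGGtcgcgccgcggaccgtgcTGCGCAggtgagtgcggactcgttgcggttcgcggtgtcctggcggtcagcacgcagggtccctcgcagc
Zfp644: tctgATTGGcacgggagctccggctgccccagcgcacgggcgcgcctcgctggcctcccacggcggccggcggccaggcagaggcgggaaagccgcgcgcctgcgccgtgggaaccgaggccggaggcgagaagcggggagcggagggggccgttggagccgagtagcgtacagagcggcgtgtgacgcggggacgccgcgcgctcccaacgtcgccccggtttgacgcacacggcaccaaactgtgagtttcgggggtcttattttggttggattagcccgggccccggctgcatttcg
The E box stood 1 time in the Zfp207 window and 2 times in that of Zfp292, the Zfp612 window held 2 GC boxes, 1 ETS core and 1 NRF1 motif, and that of Zfp644 held 1 CCAAT box, read from the other strand. No motif searched contains another.

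Of the 217 genes, 175 had a promoter in the RefSeq table. The ETS core was in 20.0% of these and in 11.2% of 18999 promoters of protein-coding genes, and the NRF1 motif in 16.0% and 9.17%. The GC box was in 45.1% and 43.1%, CCAAT in 43.4% and 38.4%, the E box in 8.57% and 7.26%, TGACGT in 9.14% and 9.0%, and TATAAA in 9.14% and 13.1%. Zfp promoters held a median of 17 CG dinucleotides against 12 in protein-coding promoters. Among the 35 Zfp genes with a promoter and a probe set called higher at 30 h, and none lower, the NRF1 motif was in 28.6%, against 13.1% of the 130 with no call. This was picked from 7 motifs. The shares were 54.3% and 42.3% for the GC box, 45.7% and 43.1% for CCAAT, and 22.9% and 19.2% for the ETS core. They were 14.3% and 8.46% for TATAAA, 8.57% and 7.69% for the E box, and 8.57% and 8.46% for TGACGT. All are matches of letters and not sites bound by a factor, and the differences were not tested.

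Zfp207 (BuGZ), a partner of Bub3 at kinetochores and in spindle assembly, had the largest rise at 30 h. Its probe set 1374803_at read 6.86, 6.35 and 6.91 in heart-beating donors, 7.24, 6.74 and 6.90 at 4 h, 6.99, 7.40 and 7.06 at 16 h, and 7.95, 8.08 and 7.57 at 30 h. All 30 h arrays lay above all others, and the difference was 1.16 (SE 0.18, adjusted p = 0.000611). The brightest probe set of the same gene (1394591_at) read 8.88, 8.76 and 8.65 against 8.40, 8.83 and 8.67, which overlap, with a difference of -0.13 (adjusted p = 0.47). The third (1397132_at) lay near the floor, with a difference of -0.08.

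Zfp292, a large C2H2 transcription factor, had 6 probe sets, of which 3 were called higher at 30 h. The brightest, 1381902_at, read 6.88, 7.06 and 7.01 in heart-beating donors, 7.03, 7.22 and 7.14 at 4 h, 7.72, 7.75 and 7.60 at 16 h, and 8.05, 8.27 and 7.61 at 30 h. The heart-beating arrays lay below all of those of 16 h and 30 h, while those of 16 h and 30 h overlapped each other. Its differences were 0.70 (SE 0.13, adjusted p = 0.0095) at 16 h and 0.99 (SE 0.13, adjusted p = 0.000213) at 30 h. Without the second 16 h animal the 16 h difference was 0.67 and the adjusted p 0.0521. Probe sets 1376917_at and 1399119_at rose by 0.60 and 0.44 at 30 h, and the remaining 3 had differences of 0.13, -0.04 and -0.23, none called.

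Zfp91, an atypical E3 ubiquitin ligase with zinc fingers, had 8 probe sets, the most of any member, and they did not move together. The brightest, 1383054_at, read 8.29, 8.30 and 8.37 in heart-beating donors, 8.28, 8.34 and 8.23 at 4 h, 8.67, 8.73 and 8.51 at 16 h, and 9.33, 9.40 and 8.80 at 30 h. The 30 h arrays were the highest and did not overlap any other group, for a difference of 0.85 (SE 0.12, adjusted p = 0.000447). Probe sets 1377105_at and 1383052_a_at rose by 0.55 and 0.46, whereas 1383463_at fell from 6.98, 7.01 and 6.86 to 6.40, 6.53 and 6.63, by -0.43 (adjusted p = 0.00277). The other 4 had differences from -0.09 to 0.32 and were not called. The call of 1377105_at was lost without the first or the third heart-beating or the first or second 30 h animal (adjusted p up to 0.0999), or with only the groups compared in the fit, and that of 1383052_a_at without the third heart-beating or the second 30 h animal (up to 0.0595).

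Zfp62 (1379029_at) was low until 16 h and high at 30 h. It read 5.95, 5.71 and 5.53 in heart-beating donors, 5.76, 5.86 and 5.93 at 16 h, and 6.79, 6.75 and 6.31 at 30 h, and the last did not overlap either of the others. The difference was 0.12 at 16 h (adjusted p = 0.727) and 0.88 at 30 h (SE 0.15, adjusted p = 0.00134), and that between 16 h and 30 h was also called (0.77, adjusted p = 0.00738). The other probe set of Zfp62 (1396175_at, mean 4.60, near the floor) differed by 0.13 at 30 h and was not called.

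Zfp612 (1389774_at), whose promoter is printed above, had the smallest p among the rises. It read 5.83, 5.89 and 5.63 in heart-beating donors, 6.11, 6.17 and 6.13 at 16 h, and 6.59, 6.51 and 6.43 at 30 h, so that the 3 groups lay in steps without overlap. The difference was 0.73 at 30 h (SE 0.08, adjusted p = 6.68e-05), and the step from 16 h to 30 h was 0.37 (adjusted p = 0.0109). The other probe set of Zfp612 (1395007_at) differed by 0.22 at 30 h and was not called.

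Zfp451, a SUMO E3 ligase, read 5.68, 5.49 and 5.47 in heart-beating donors and 6.14, 6.33 and 6.09 at 30 h (1382242_at), groups that did not overlap, with a difference of 0.64 (SE 0.08, adjusted p = 0.00018). Its other probe set (1394654_at), near the floor, differed by 0.20 and was not called. Zfp385a (Hzf), an RNA-binding protein with a role in the p53 response, read 7.39, 7.61 and 7.64 in heart-beating donors, 7.33, 7.54 and 7.59 at 16 h and 8.36, 8.15 and 7.99 at 30 h. It was called at 30 h (0.62, adjusted p = 0.00395) and not at 4 h or 16 h, with a called step from 16 h to 30 h of 0.68 (adjusted p = 0.00524). Zfp280d, related to the fly insulator protein Suppressor of Hairy wing, rose by 0.76 (adjusted p = 0.00915), Zfp61 by 0.69, Zfp958l1 by 0.62 and Zfp518a by 0.61. The other 2 probe sets of Zfp61 were not called, the brighter of them (1378650_at) with a difference of -0.01. Zfp638 read 8.21, 8.09 and 8.03 in heart-beating donors and 8.54, 8.58 and 8.76 at 30 h (0.52, adjusted p = 0.000957). The other 2 probe sets of Zfp638 were not called, and 1394975_at differed by -0.16. Zfp148 (ZBP-89) and Zfp281, related repressors that bind GC-rich DNA, rose by 0.46 and 0.31 in 2 of the 3 probe sets of Zfp148 and by 0.41 in Zfp281; the rule for naming did not pick these 2 genes or Zfp182, whose values were known when they were chosen.

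Zfp644, a partner of the histone H3K9 methyltransferases G9a and GLP, had the largest fall at both 16 h and 30 h. Probe set 1385977_at read 7.65, 7.55 and 7.70 in heart-beating donors, 7.68, 7.42 and 7.61 at 4 h, 7.27, 7.07 and 7.05 at 16 h, and 6.45, 6.80 and 6.64 at 30 h. The 4 h arrays overlapped the heart-beating ones, and the 16 h and 30 h arrays formed steps below them without overlap. The differences were -0.51 at 16 h (SE 0.10, adjusted p = 0.012) and -1.003 at 30 h (SE 0.10, adjusted p = 2.88e-05), and that from 16 h to 30 h was -0.50 (adjusted p = 0.00737). The 16 h call was lost without the third heart-beating or the second 16 h animal (adjusted p = 0.0622 and 0.0644). The brightest probe set of the gene, 1367505_at, read 8.56, 8.30 and 8.50 in heart-beating donors and 8.23, 8.29 and 8.07 at 30 h, below them without overlap, and its difference of -0.26 was not called (adjusted p = 0.0799). The third (1393720_at) differed by 0.005 at 30 h and was not called.

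Zfp330, a nucleolar zinc finger autoantigen, was the brightest member to fall. It read 8.62, 8.52 and 8.42 in heart-beating donors and 7.87, 8.07 and 7.86 at 30 h (1389531_at), which do not overlap, with a difference of -0.59 (SE 0.11, adjusted p = 0.0021). Zfp212 differed by -0.47, Zfp496 (Nizp1), a repressor that binds the methyltransferase Nsd1, by -0.42, Zfp213 by -0.39, Zfp637 by -0.37, Zfp423, a cofactor of BMP and Smad signalling, by -0.35, Zfp365, a centrosomal protein, by -0.34, and Zfp972 by -0.23, all called. For Zfp212, Zfp496, Zfp213, Zfp423 and Zfp972 each call was in a dimmer probe set. The brightest of these genes differed by -0.05, 0.13, 0.17, -0.13 and 0.09 in that order, none called. The called probe set of Zfp496 (1384517_at) was not lower at 16 h, where it read 5.82, 5.76 and 5.51 against 5.67, 5.43 and 5.66, and its step from 16 h to 30 h was -0.53 (adjusted p = 0.00328). The call of Zfp637 was lost without the first or the third animal of either group, and that of Zfp972 without the first or the third heart-beating or the second 30 h animal (adjusted p up to 0.113 and 0.0866). Both were also lost with only the groups compared in the fit (adjusted p = 0.0568 and 0.0664). Of the 28 calls at 30 h that were named by rule, 22 held in all 12 such fits.

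**Figure D4:**
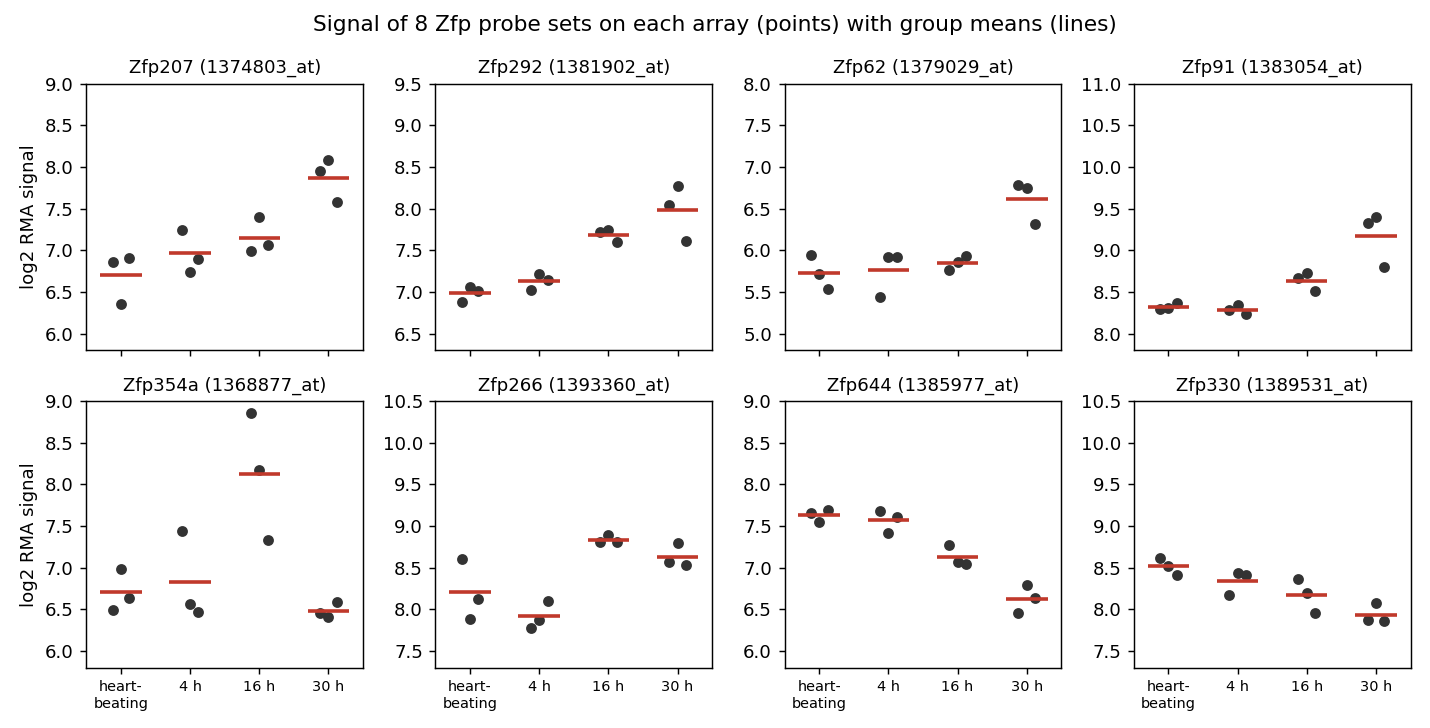
Points give the log2 signal of 8 Zfp probe sets on each of the 12 arrays and lines the group means; every panel spans the same number of log2 units but not the same levels. Zfp207, Zfp292, Zfp62 and Zfp91 are highest at 30 h, Zfp354a and Zfp266 at 16 h, and Zfp644 and Zfp330 are lowest at 30 h.

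Between times, 10 Zfp probe sets were higher and 1 lower at 16 h than at 4 h, where 7.82% of all probe sets were called (5.31% higher and 2.52% lower). Zfp354a (1.30), Zfp266 (0.91), Zfp592 (0.68), Zfp292 (0.56) and Zfp638 (0.49) had the largest rises, and Zfp644 was the one to fall (-0.44). From 16 h to 30 h, 22 probe sets rose and 7 fell, where 10.2% of all probe sets were called (4.29% higher and 5.95% lower). The 5 largest rises were those of Zfp62, Zfp207, Zfp385a, Zfp91 (1383054_at, 0.54) and Zfp955a (0.52), and falls other than those of Zfp354a, Zfp496 and Zfp644 included Zfp277 (-0.40) and Zfp869 (-0.32). Of these steps, those of Zfp354a, Zfp292, Zfp592 and Zfp644 from 4 h to 16 h and of Zfp207, Zfp91, Zfp277 and Zfp869 from 16 h to 30 h were lost in 1 or more of the 12 fits without 1 array, with adjusted p up to 0.134. Over all 3 comparisons with heart-beating donors, the moderated F test called 63 of 336 (18.8%) against 21.3% of all probe sets.

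Probe sets of the same gene were often not called together. Of the 217 genes, 143 had 1 probe set and 74 had several, 193 in all. At 30 h, 32 of the 74 (43.2%) had at least 1 probe set called, against 44.8% of all 4525 genes with several, and 25 (33.8%) had exactly 1 (19 higher and 6 lower), against 32.3%. In 4 genes 2 or more were called the same way with none the other way, and Zfp318 was the one gene in which every probe set was called, with rises of 0.35, 0.46 and 0.30. In 3 genes, Zfp91, Zfp503 and Zfp655, probe sets were called in both directions, 4.05% of the 74 against 5.39% of all.

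Zfp503 (Nolz1), a repressor known from limb and striatum development, had rises of 0.65 (1393990_at) and 0.34 (1386721_at) and a fall of -0.27 (1375366_at), the last near the floor. For Zfp655, probe set 1389685_at rose from 7.68, 7.42 and 7.34 to 7.85, 8.20 and 7.73 (0.44, adjusted p = 0.026). Its probe set 1385059_at fell from 4.18, 4.08 and 4.15 to 3.76, 3.88 and 3.79 (-0.33, adjusted p = 0.00529), at a level near the floor. The groups do not overlap in either. The call of 1386721_at was lost without the first or second animal of either group, and that of 1389685_at without the second or the third heart-beating or the second 30 h animal (adjusted p up to 0.131 and 0.107), and both with only the groups compared in the fit.

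Whether they differed was tested on the gap between the brightest probe set and the next one, fitted over all 4525 genes with several. Of the 74 Zfp genes, 0 showed a changed gap at 4 h, where 0.0442% of all such genes did, 6 (8.11%) at 16 h, where 13.7% did, and 25 (33.8%) at 30 h, where 35% did, so Zfp genes were near the rest of the array. In 23 of the 25 (92%) the brightest moved upward relative to the next, against 69% of the 1583 genes changed in all. The exceptions were Zfp523 and Zfp207, whose brightest probe set changed by -1.29 relative to 1374803_at (SE 0.19, adjusted p = 3.06e-05). In Zfp644 the brightest changed by 0.75 relative to 1385977_at (adjusted p = 3.99e-05), in Zfp91 by 0.76 relative to 1399044_at (adjusted p = 0.000949), and in Zfp655 by 0.77 relative to 1385059_at (adjusted p = 2.87e-05). A value for 1 of these genes thus belongs to the probe set and not to the gene as a whole. The brightest was picked by the mean over all 12 arrays, those of 30 h among them, so a rise at 30 h itself favoured the pick. In some of the 25 genes the next probe set lay near the floor, where differences are compressed, as in Zfp655 (mean 4.05) and Zfp451 (4.08). The probes' positions in the transcripts were not used here.

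**Figure D5:**
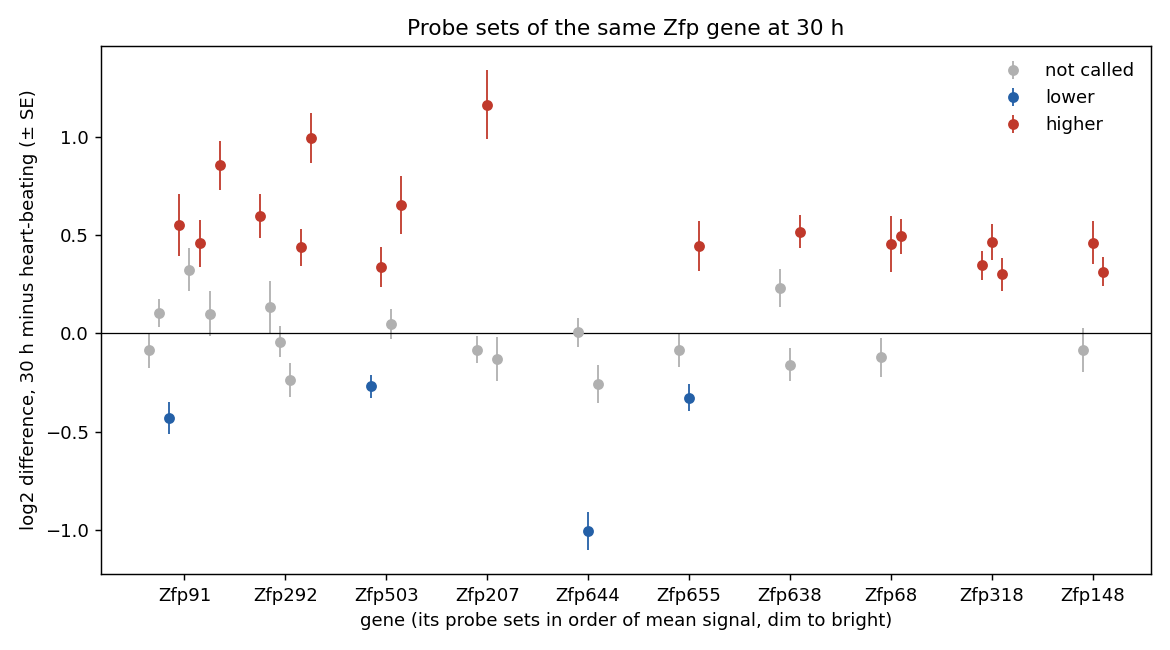
Each point is the log2 difference between 30 h and heart-beating donors of 1 probe set, with its standard error from the limma fit, for 10 Zfp genes with several probe sets ordered from dim to bright within a gene. Red points were called higher, blue lower and grey not called; Zfp91, Zfp503 and Zfp655 hold both colours, and Zfp318 is red throughout.

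Zfp genes lie partly in clusters in the rat genome. In the order of the GRCr8 annotation, 47 of the 211 genes that could be placed stood beside another member, in 19 runs of at most 4 genes. Of these 47, 6 (12.8%) had a probe set called higher at 30 h and 3 had one called lower, against 37 (22.6%) and 9 of the 164 that stood apart. Both genes of the pair Zfp329 and Zfp110 were called higher, and none was in the run of Zfp26, Zfp426, Zfp266 and Zfp846. The difference between the groups was not tested, and the number of probe sets per gene and their signal were not matched between them. Over all genes, counted by the brightest probe set alone and so not in the same way, 12.5% were called higher and 10.5% lower.

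The machinery through which KRAB zinc finger proteins act was read from a list of 37 genes, of which 31 were measured, each by its brightest probe set. At 16 h 3 were called higher and none lower, where 4.3% and 1.3% of all genes were, and at 30 h 10 were higher and 3 lower, where 12.5% and 10.5% were, with a median difference of 0.25 against 0.01 over all probe sets. Trim28 itself differed by -0.01 at 30 h (adjusted p = 0.973), and Setdb1, the methyltransferase it recruits, by 0.26 (adjusted p = 0.149). Tasor, the scaffold of the HUSH silencing complex, rose by 0.81 at 16 h (adjusted p = 0.00382) and 1.06 at 30 h (SE 0.12, adjusted p = 9.07e-05). Of the other HUSH members, Pphln1 rose by 0.41 at 30 h (adjusted p = 0.0097), and Mphosph8 rose by 0.31 at 16 h (adjusted p = 0.0243) but differed by 0.08 at 30 h (adjusted p = 0.476). The deacetylase Hdac2 rose by 0.68 at 30 h. Ehmt1 (GLP), a partner of Zfp644, rose by 0.38 (adjusted p = 0.00119). Sumo2, a modifier used in this repression, fell by 0.54 (adjusted p = 0.00016). Trim28, Setdb1, Pphln1 and Mphosph8 were named for their roles, outside the rule for naming and with values known.

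Other C2H2 families were counted the same way. Of 33 BTB zinc finger genes, 8 were called higher and 2 lower at 30 h, with a median of 0.07, and of 11 SCAN zinc finger genes 5 were higher and none lower, with a median of 0.21. Of 18 Krueppel-like and Sp factors, 3 were higher and 2 lower, with a median of -0.03. Across all genes by their brightest probe set, 12.5% were higher and 10.5% lower, as given above.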

How the data were processed

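Total RNA of 12 hepatocyte preparations was hybridised to Affymetrix rat arrays. The authors deposited log2 signals per probe set, made with RMA and used with limma per the submitters' processing notes, which name no versions. RMA sets all arrays to nearly 1 distribution, so a loss shared by all transcripts leaves no trace. The number of arrays limits the precision.

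Of 31099 probe sets, 57 controls were left out. limma 3.58.1 (lmFit, eBayes; R 4.3.3) fitted 1 mean per group to all 31042 others, with 8 residual and 4.93 prior degrees of freedom; a call is a Benjamini-Hochberg adjusted p under 0.05. The code of the fit was run on simulated independent normal noise with known shifts. That run held no trend in RNA quality, so it is no check of the results here. Symbols came from the platform annotation; 212 of 217 Zfp genes matched RefSeq by gene ID. Members that share a symbol with another gene (7 probe sets) were left out, and probe sets with the suffixes _s_at (4) and _x_at (3) may read related genes.

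Named were the 12 largest rises and falls against heart-beating donors and the 5 largest between times among calls without overlap, the brightest 5 and dimmest 3, genes called in both directions, the 3 smallest p where none was called, and up to 4 called genes of another list; exceptions are named in the text. Members and lists were chosen with earlier results of these data known; after values were seen, the patterns of the BTB, SCAN and Krueppel-like lists were corrected because they took genes of other kinds. A planned count of protein motifs was not run, as protein sequences were not used here. Animals are the replicates per the labels.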

Additional observations from a re-analysis of the deposited data

Results flagged for a closer look

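Several named members differed between intervals by a test of the difference itself, in the same limma fit. From 16 h to 30 h the effect changed by -1.64 in Zfp354a, -0.53 in Zfp496, -0.50 in Zfp644, -0.28 in Zfp655 (1385059_at), 0.37 in Zfp612, 0.47 in Zfp451, 0.54 in Zfp91 (1383054_at), 0.68 in Zfp385a, 0.72 in Zfp207 and 0.77 in Zfp62. From 4 h to 16 h it changed by 1.30 in Zfp354a, 0.91 in Zfp266, 0.56 in Zfp292, 0.49 in Zfp638, 0.45 in Zfp318, 0.32 in Zfp612, 0.31 in Zfp451 and -0.44 in Zfp644. The step of Zfp318 was lost without the second 16 h animal (adjusted p = 0.051). Zfp354a is the one whose change turned direction, up to 16 h and down after it.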

How the results depend on the processing

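The count of 0 Zfp calls at 4 h was the same in every alternative run. The number called at 16 h (8) was 14 with only the groups compared in the fit, 17 without the 30 h arrays and 0 with the Gapdh 3' minus 5' gap of each array as a covariate, both added after the data were seen, and 1 to 13 without 1 array. At 30 h (65 called) it was 46 with only the groups compared, 50 to 73 without 1 array and 0 with the Gapdh covariate. From 4 h to 16 h (11 called) it was 17 with cyclic loess and with further quantile normalization, 22 with only the groups compared, 23 without the 30 h arrays, 4 with the Gapdh covariate and 2 to 17 without 1 array. From 16 h to 30 h (29 called) it was 18 with the brightest probe set per gene, 16 with only the groups compared, 0 with the Gapdh covariate and 10 to 33 without 1 array. The F test called 3 with that covariate. The median Zfp difference at 16 h (-0.01) was 0.0192 with median centring and -0.0369 with the covariate. At 30 h (0.08) the median was 0.13 in the upper part by signal, 0.11 at a mean signal of 5 or more, 0.11 with the brightest probe set, -0.0292 with the covariate and, without 1 array, 0.0482 to 0.0983, the lowest without the first 30 h animal. The covariate turned the 30 h difference of Zfp637 to 0.43, Zfp385a to -0.36, Zfp91 (1383463_at) to 0.14 and Zfp503 (1393990_at) to -0.16, each with an adjusted p of 0.577 or more. With a floor of 4 or 6 in place of 5, 27 or 186 Zfp probe sets lay under it. Rises made up 81.5% of Zfp calls at 30 h, and 75% with cyclic loess or further quantile normalization. At 16 h rises made up 68.2% of calls over all probe sets and 59.3% or 57.6% with those scalings, and 87.5% of Zfp calls and 80% or 77.8%. Of the 52 named calls, all were lost with the covariate, 31 held in every other alternative and 31 in every fit without 1 array; 8 of the 8 at 16 h and 24 of the 28 at 30 h kept their sign with it, with standard errors 1.67 to 1.89 and 3.15 to 3.91 times as large. With animal numbers as a replicate block, 60 Zfp probe sets were called at 30 h and 9 at 16 h; same-numbered animals correlated at -0.27 to 0.11 in their deviations, so the numbers were not taken as pairs.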
